A study of Homo sapiens with 6 samples.

Results

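The genes described here are the protein-coding members of 4 related families of extracellular proteases and of their inhibitors. They comprise the matrix metalloproteinases (MMP), the a disintegrin and metalloproteinase genes (ADAM), their secreted relatives with thrombospondin repeats (ADAMTS, with the catalytically silent ADAMTSL) and the tissue inhibitors of metalloproteinases (TIMP). Members were taken by symbol, as one of these prefixes followed by a number, with no use of measured values. This gave 71 genes, 23 MMP, 20 ADAM, 19 ADAMTS, 5 ADAMTSL and 4 TIMP, among 28395 gene IDs in the count table. RNA was sequenced from MDA-MB-468-PR, a paclitaxel-resistant derivative, and from its parent MDA-MB-468, an established triple-negative line of human breast cancer. The derivative was made by exposure to 3 to 4.5 nM of the microtubule drug paclitaxel over 2 months, and there were 3 resistant and 3 control libraries, all given as untreated at harvest. Both lines were grown in high-glucose DMEM with 10% serum. All resistant libraries come from 1 derivative, so an effect of paclitaxel and other changes acquired during its culture cannot be told apart. Resistant replicate 1 and control replicate 1 belong to a 2020 batch and the other 4 libraries to a 2021 batch.

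MMPs are secreted or membrane-bound zinc enzymes, made as inactive zymogens, that cut collagens, laminins and other matrix proteins. ADAMs sit in the plasma membrane and release the outer parts of growth factors, cytokine receptors and adhesion molecules, and ADAMTS enzymes act on proteoglycans, procollagens and blood proteins. TIMPs bind the active site of these enzymes, and TIMP2 also holds pro-MMP2 on MMP14 at the cell surface, where MMP2 is activated. In breast tumours stromal cells are a major source of many of these enzymes, and a cell line in culture holds the tumour cells alone.

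The total count was 37889818, 63073979 and 93680129 in resistant replicates 1 to 3, and 41343499, 59171296 and 66475627 in control replicates 1 to 3. The 71 genes held 0.112% to 0.12% of the counts of resistant libraries and 0.0904% to 0.103% of those of control libraries. The limit that a count of 0 allows, 3 counts, was 0.0312 to 0.0808 CPM (counts scaled to library size) in resistant and 0.0443 to 0.0745 CPM in control libraries, for counting error only. The epithelial markers summed to 12500 to 15400 CPM in resistant and 10200 to 12600 CPM in control libraries, and all 12 were measured. Among them the growth factor receptor EGFR rose 1.61-fold (edgeR adjusted p = 0.0199, up to 0.0853 with 1 library left out and 0.271 without the batch term) and the basal keratin KRT14 fell 4.26-fold (edgeR adjusted p = 0.000894, and 0.127 without the batch term). The progesterone receptor gene PGR was listed at 0 in every library and ESR1 held 86 to 110 counts in resistant and 50 to 183 counts in control libraries. Of 10 fibroblast markers 3, namely LUM, THY1 and POSTN, were at 0 everywhere, and the list summed to 26.6 to 31.3 CPM in resistant and 28.6 to 34.6 CPM in control libraries, mostly COL1A1. FAP, the next in level, was at 2.75, 2.72 and 2.49 CPM in resistant and 5.84, 3.65 and 3.78 CPM in control libraries (edgeR adjusted p = 0.051). Leukocyte markers summed to 14.7 to 22.7 CPM in resistant and 13.9 to 23.7 CPM in control libraries, with PTPRC at 1 to 7 counts per library and MS4A1, 1 of the 8, at 0. CD14, the most abundant, was at 12.3, 15.9 and 9.19 CPM in resistant and 6.51, 8.81 and 18.7 CPM in control libraries. CSF1R was lower without overlap, at 1.67, 2.12 and 1.23 CPM in resistant and 4.2, 7.78 and 2.38 CPM in control libraries. CD68 was higher without overlap, at 4.17, 2.9 and 2.81 CPM in resistant and 2.06, 2.5 and 2.24 CPM in control libraries. Endothelial markers summed to 15.8 to 66.2 CPM in resistant and 9.58 to 26.1 CPM in control libraries, mostly KDR. No marker of these 3 cell types passed the edgeR test. At an unadjusted p under 0.05 there were 1 fibroblast, 2 leukocyte and 1 endothelial markers, DESeq2 called 1, 1 and 0 and limma voom 0, and their part in the results was not tested.

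Of the 71 genes, 33 had enough counts to be tested and 38 had not. Among the 33, 10 were higher and 1 was lower in the resistant line (edgeR quasi-likelihood test in a model of line and batch, with p adjusted by Benjamini-Hochberg over all 13950 tested genes and a threshold of 0.05). Over all tested genes 11.7% were called, 6.23% higher and 5.48% lower. At an unadjusted p under 0.05 the count was 19 of 33, and the share of all tested genes at that limit was not taken. The log2 difference was above 0 for 29 of the 33 genes, 87.9%, against 49.4% of all tested genes, and its median was 0.559, against -0.004 over all tested genes. The 3 resistant libraries lay above the 3 control libraries without overlap for 12 of the 33 and below for 1, beside 10.7% and 10.2% of all tested genes. The calls spread over all families except ADAMTSL. They comprised 3 of 9 tested MMPs (MMP14, MMP2 and MMP13), 2 of 4 TIMPs (TIMP2 and TIMP3), 5 of 8 ADAMTS (ADAMTS1, ADAMTS7, ADAMTS13 and ADAMTS14 higher, ADAMTS4 lower) and 1 of 10 ADAMs (ADAM22), while neither tested ADAMTSL passed. Of the 11, 5 changed at least 2-fold. By level, 2 of the 10 genes under 1 CPM were called, 3 of 10 between 1 and 10 CPM, 6 of 9 between 10 and 100 CPM and 0 of the 4 at 100 CPM or more. Those 4 are ADAM9, ADAM10, ADAM15 and ADAM17, which were tested by the same edgeR model with adjusted p of 0.0826 to 0.652. At an unadjusted p under 0.05 there was 1 of the 4, ADAM9, and DESeq2 called 1. In bulk RNA, a change in the share of cells that express a gene and a change in RNA per cell cannot be told apart. Because a gene that is low everywhere is not tested, these counts describe the tested genes and not the families as a whole. Among the 12 above, MMP13, ADAM21 and TIMP4 were kept by the filter through their resistant libraries. Their separation is therefore not independent of the filter. The counts at 2-fold and by level were not set beside shares of all tested genes either.

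**Figure D1:**
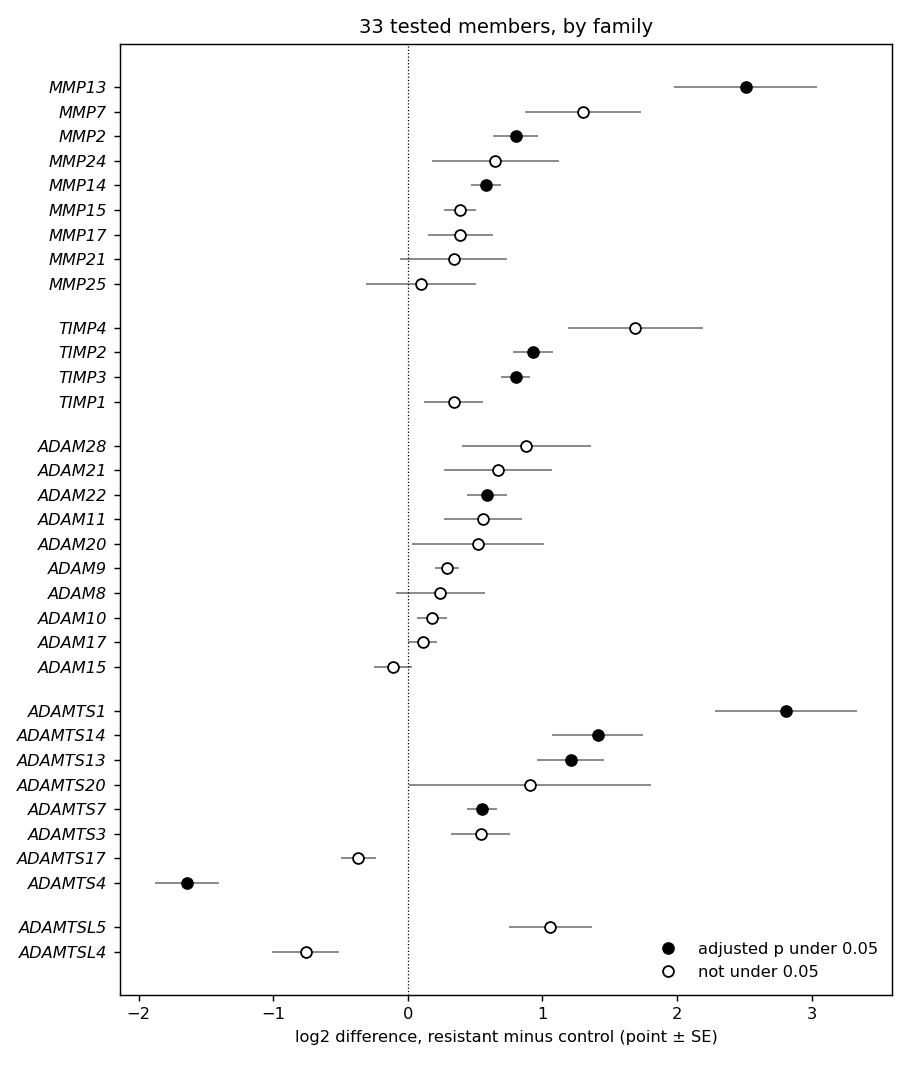
Log2 difference between resistant and control libraries (resistant minus control, point ± SE) for the 33 tested genes, grouped by family. Filled points passed the adjusted p threshold of 0.05, and 4 of the 33 points lie left of 0, with ADAMTS4 at -1.64 the only filled one among them.

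The calls lean on the batch term and on single libraries. With no batch term the lower call of ADAMTS4 was the only one left (adjusted p = 0.0359), the 10 higher genes had adjusted p of 0.0585 to 0.311, and 362 of all 13950 genes were called. Without resistant replicate 3 there were 2 higher calls and 1 lower, and without resistant replicate 2 there were 4 and 1. Under the alternative settings none of the 11 called genes turned in direction. ADAM8, ADAM15, ADAM20 and MMP25, which were not called, each turned when 1 library was left out. The median log2 difference of the tested members stayed between 0.44 and 0.66.

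The membrane protease MMP14 and the gelatinase MMP2, with the inhibitor TIMP2 that links them, rose together in the resistant line. MMP14 (Entrez gene 4323, chromosome 14, 22836585 to 22847758, plus strand, GRCh38), a membrane-anchored collagenase, had 41.6, 56.5 and 48.5 CPM in resistant replicates 1 to 3, against 32.1, 31.7 and 33.7 CPM in control replicates 1 to 3. The groups did not overlap, and the control libraries lay within a narrow band. The mean was 48.8 ± 7.45 CPM in resistant and 32.5 ± 1.06 CPM in control libraries (SD, n = 3 each), a 1.5-fold rise (log2 difference 0.58 ± 0.11 SE, edgeR adjusted p = 0.0124), with log2 differences of 0.37 in 2020 and 0.68 in 2021. Without resistant replicate 2 or 3 the adjusted p was 0.0652 and 0.0574.

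MMP2 (gene 4313, chromosome 16, 55478830 to 55506691, plus strand), which cuts denatured and basement membrane collagen, had 17.5, 18.3 and 19.8 CPM in the resistant libraries and 9.29, 14.0 and 8.70 CPM in the control libraries. Every resistant library was above every control library, and control replicate 2 was the highest of the controls. The means were 18.5 ± 1.16 CPM in resistant and 10.7 ± 2.9 CPM in control libraries (SD, n = 3 each), a 1.74-fold rise (log2 difference 0.80 ± 0.17 SE, edgeR adjusted p = 0.0205), and the difference was 0.91 in 2020 and 0.78 in 2021. The call ended without the resistant or the control library of 2020 (adjusted p = 0.0917 and 0.0898) and without resistant replicate 3 (0.113). The other gelatinase, MMP9, was too low to test, with 0, 17 and 15 counts in resistant and 2, 2 and 9 counts in control libraries. Its ratio of summed counts per depth was 2.02, with a 95% counting interval of 1.03 to 4.19 that ignores the spread between libraries.

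TIMP2 (gene 7077, chromosome 17, 78852977 to 78925387, minus strand) had 25.9, 40.4 and 41.2 CPM in the resistant libraries, against 14.3, 25.3 and 16.5 CPM in the control libraries. The groups did not overlap, although resistant replicate 1, from 2020, and control replicate 2, from 2021, were close. TIMP2 averaged 35.8 ± 8.65 CPM in resistant and 18.7 ± 5.83 CPM in control libraries (SD, n = 3 each), a 1.91-fold rise (log2 difference 0.93 ± 0.15 SE, edgeR adjusted p = 0.0069) that was 0.86 in 2020 and 0.99 in 2021. Without resistant replicate 3 the adjusted p was 0.0537.

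TIMP3 (gene 7078, chromosome 22, 32801705 to 32863041, plus strand), the inhibitor that stays bound to the matrix and also blocks ADAM17 and aggrecanases, had 16.7, 29.7 and 29.5 CPM in resistant libraries and 8.62, 18 and 17.6 CPM in control libraries. Both lines were lower in 2020, so resistant replicate 1 was just under 2 of the control libraries, and within each batch the resistant libraries were higher. It rose 1.74-fold, with means of 25.3 ± 7.46 CPM in resistant and 14.8 ± 5.33 CPM in control libraries (SD, n = 3 each; log2 difference 0.80 ± 0.11 SE, edgeR adjusted p = 0.00282), and the within-batch differences were 0.95 in 2020 and 0.73 in 2021. Leaving out any 1 library kept the call. TIMP3 lies inside the span of the synapsin gene SYN3 on the other strand. Overlap of their exons was not examined and the strand setting is not given, so whether reads of one were counted for the other was not tested. SYN3 itself had 35, 110 and 165 counts in resistant and 21, 39 and 62 in control libraries, a 2.00-fold rise (edgeR adjusted p = 0.0353, and 0.0617 with replicates as a block). Leaving out each resistant library or control replicate 1 or 2 ended the call of SYN3 (adjusted p at most 0.156), and so did a fit with no batch term (0.206).

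The other TIMPs did not pass. TIMP1 (gene 7076, chromosome X, 47582436 to 47586789), a soluble inhibitor of most MMPs, had 20.9, 21.2 and 17.2 CPM in resistant libraries, against 17.5, 19.1 and 10.3 CPM in control libraries, and the groups overlapped (log2 difference 0.34 ± 0.22 SE, edgeR adjusted p = 0.367). Of the 10 nearest tested genes around TIMP1, 5 were called lower in the resistant line and none higher, with a median log2 difference of -0.48, among them the kinase gene ARAF, 21 kb away, at -0.98 (adjusted p = 0.0023). TIMP4 (gene 7079) was far lower in level, with 12, 14 and 24 counts in resistant and 7, 4 and 2 counts in control libraries. These are 0.323, 0.21 and 0.249 CPM in resistant, against 0.174, 0.0715 and 0.0295 CPM in control libraries, a separation without overlap that missed the threshold (log2 difference 1.69 ± 0.50 SE, edgeR adjusted p = 0.0645). TIMP4 was kept for testing through its resistant libraries, so this separation is not independent of the filter. TIMP1 lies inside SYN1 and TIMP4 inside SYN2, and SYN2 held 1, 3 and 5 counts in resistant and 3, 0 and 0 in control libraries.

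**Figure D2:**
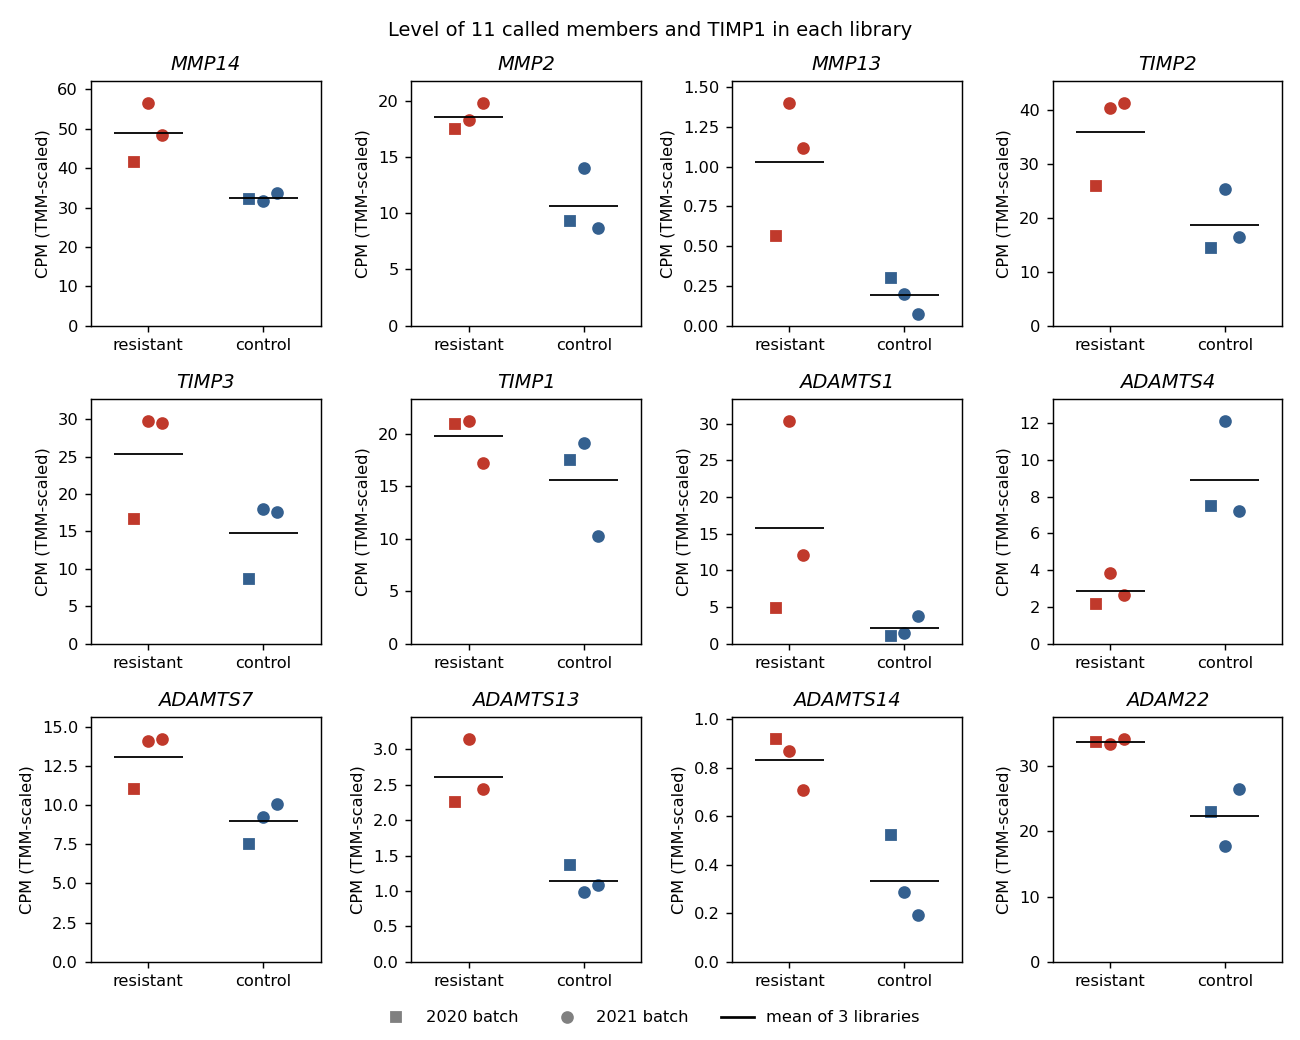
Level in CPM of the 11 called genes and TIMP1 in each library, resistant left and control right. Squares are the 2020 batch, circles the 2021 batch and lines the mean of 3 libraries. The groups overlap for TIMP3 and TIMP1 and are apart for the other 10 genes, with ADAMTS4 the one gene lower in resistant libraries.

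Among the remaining membrane-type MMPs, MMP15 was the most abundant and sat just outside the threshold. It had 71.3, 74.4 and 80.0 CPM in resistant and 48.8, 70.4 and 54.6 CPM in control libraries, apart but with control replicate 2 near the lowest resistant library (log2 difference 0.39 ± 0.12 SE, edgeR adjusted p = 0.0734). It passed with upper quartile scaling, without a filter, with DESeq2, with crossed replicate numbers as a block and without control replicate 2 (adjusted p = 0.00933 to 0.0426). MMP17, MMP24 and MMP25 had means of 0.412 to 2.65 CPM over both groups, log2 differences of 0.10 to 0.65 and adjusted p of 0.338 to 0.912. MMP21, the only other testable MMP outside the classical classes, was at 0.195 ± 0.0334 CPM in resistant and 0.153 ± 0.0349 CPM in control libraries (SD, n = 3 each; edgeR adjusted p = 0.63).

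A cluster of 9 MMP genes on chromosome 11 holds the collagenases MMP1, MMP8 and MMP13, and only its outermost genes, MMP7 and MMP13, were testable. MMP13 (gene 4322, 102942995 to 102955732, minus strand), a collagenase that is itself activated by MMP14 and MMP2, had 21, 93 and 108 counts in resistant and 12, 11 and 5 counts in control libraries. These are 0.566, 1.40 and 1.12 CPM in resistant, against 0.298, 0.197 and 0.0738 CPM in control libraries, and the groups were apart. Its fitted rise was 5.69-fold (log2 difference 2.51 ± 0.53 SE, edgeR adjusted p = 0.0192), 0.85 on the log2 scale in 2020 and 3.04 in 2021. The call ended without resistant replicate 2 or 3 or control replicate 2 (adjusted p = 0.0519, 0.087 and 0.0678).

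MMP7 (gene 4316, 102520508 to 102530747, minus strand), a small epithelial MMP without a hemopexin domain, had 5.87, 17.1 and 6.90 CPM in resistant and 2.76, 2.86 and 6.25 CPM in control libraries. Resistant replicate 2 stood well above the other libraries, and control replicate 3 exceeded resistant replicate 1. The difference did not pass (log2 1.30 ± 0.43 SE, edgeR adjusted p = 0.119), though it did with DESeq2 (0.00451) and with crossed replicate numbers (0.00117). Between these ends, MMP1, MMP3, MMP8, MMP10, MMP12, MMP20 and MMP27 were too low to test. MMP1, the interstitial collagenase, had 0, 12 and 2 counts in resistant and 0 in every control library, at least 3.82-fold higher when the control group is set to 3 counts in all. MMP3, a stromelysin, had 0, 8 and 1 counts in resistant and 0, 1 and 0 in control libraries, and MMP12, the macrophage elastase, had 5 counts, all in resistant replicate 2. MMP20, the enamel enzyme enamelysin, had 1, 4 and 12 counts in resistant and 4, 8 and 8 in control libraries (ratio of summed counts 0.697, 95% counting interval 0.343 to 1.4). MMP10 and MMP27 were listed at 0 in every library. Of the counts of MMP1, MMP3 and MMP12, most were from resistant replicate 2, the library that was also highest for MMP7 and MMP13.

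**Figure D3:**
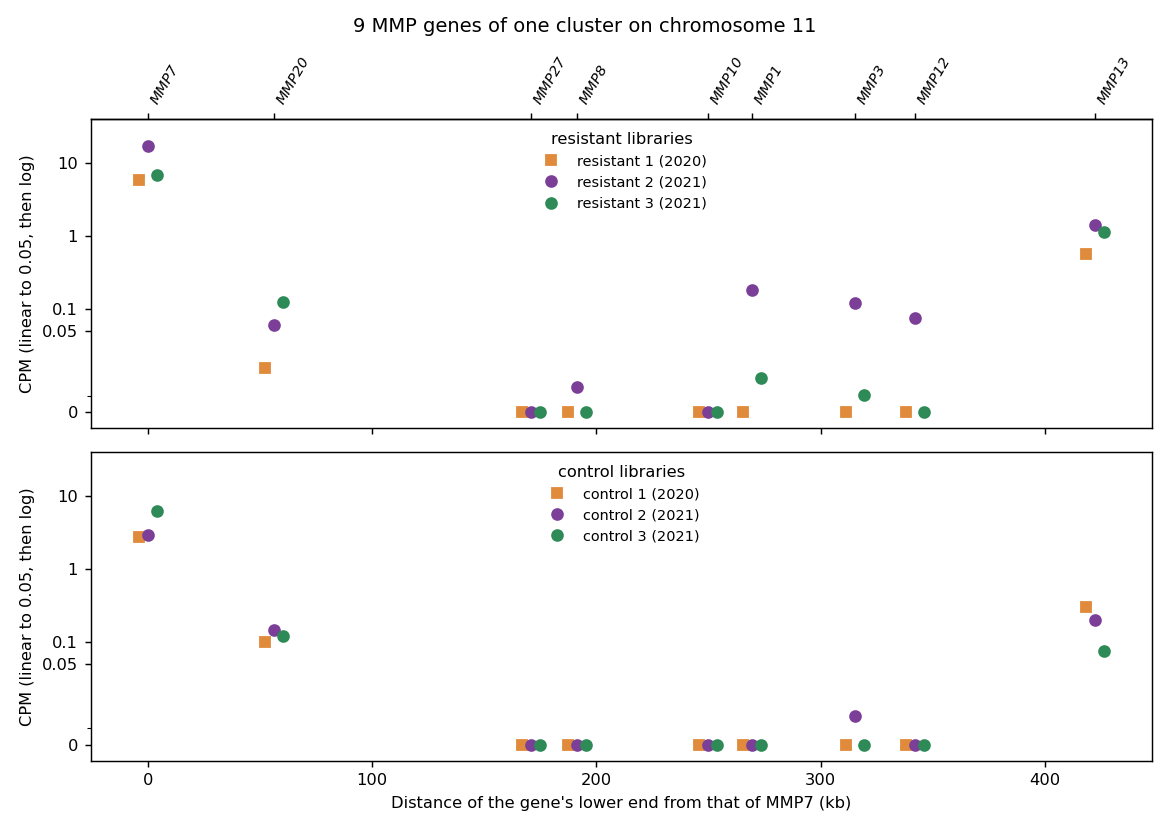
Level in CPM of the 9 MMP genes of the chromosome 11 cluster against distance in kb from MMP7, with the resistant libraries in the upper panel and the control libraries in the lower one (axis linear up to 0.05 CPM, then logarithmic). MMP7 at 0 kb and MMP13 at 422 kb carry nearly all the signal, and resistant replicate 2 is the highest library for MMP7, MMP1, MMP3, MMP12 and MMP13.

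The tested genes on both sides of the cluster were not uniform. Of the 10 nearest tested genes around MMP13, 3 were called higher and none lower, with a median log2 difference of 0.64. These were the apoptosis inhibitor BIRC3 (2.09-fold, adjusted p = 0.026), the ciliary motor gene DYNC2H1 (1.94-fold, 0.0398) and the inflammatory caspase CASP1 (2.64-fold, 0.00708, 2082 kb away). DCUN1D5, the nearest of the 10 at 108 kb, was at -0.01. MMP7, itself in the cluster, is 1 of the 10 (log2 difference 1.30) and raises their median. CASP4LP (1.51), CASP4 (0.32) and CASP1 lie 1959 to 2082 kb away. With replicates as a block BIRC3 was at 0.0628, and its call ended without resistant or control replicate 2 or 3, DYNC2H1 without any resistant library or control replicate 1, and CASP1 without control replicate 3 (adjusted p up to 0.118, 0.198 and 0.0843). With no batch term BIRC3 was at 0.513, DYNC2H1 at 0.1 and CASP1 at 0.388.

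Promoter sequences, 250 bases before to 50 after the annotated start in RefSeq on GRCh38.p14, were at hand for 44 of the 71 genes, as 45 promoters. They were searched on both strands for TGANTCA, for TATAAA and for the GC box GGGCGG, motifs that do not overlap in the sequences shown. TGANTCA is a loose form of the core bound by AP-1 (FOS and JUN dimers), here with any base in the middle. The usual core has G or C there. Shown are the 2 cluster genes whose AP-1 and TATA letters lie at nearly the same positions but of which 1 was measured and the other at 0, and the promoters of MMP14 and TIMP3, which were called. Capitals mark the motif matches.
MMP7 (chr11:102530698-102530997, minus strand): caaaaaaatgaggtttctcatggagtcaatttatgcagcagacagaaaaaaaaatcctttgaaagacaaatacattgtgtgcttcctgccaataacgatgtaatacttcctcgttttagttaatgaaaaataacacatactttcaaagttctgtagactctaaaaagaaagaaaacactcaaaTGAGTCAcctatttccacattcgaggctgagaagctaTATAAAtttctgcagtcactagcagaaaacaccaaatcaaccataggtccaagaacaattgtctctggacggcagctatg
MMP10 (chr11:102780579-102780878, minus strand): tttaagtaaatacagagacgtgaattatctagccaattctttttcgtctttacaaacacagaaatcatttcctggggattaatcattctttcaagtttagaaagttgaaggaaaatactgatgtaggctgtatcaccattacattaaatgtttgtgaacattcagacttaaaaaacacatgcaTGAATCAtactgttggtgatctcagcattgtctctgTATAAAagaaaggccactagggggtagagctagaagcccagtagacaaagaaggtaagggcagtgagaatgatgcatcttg
MMP14 (chr14:22836335-22836634, plus strand): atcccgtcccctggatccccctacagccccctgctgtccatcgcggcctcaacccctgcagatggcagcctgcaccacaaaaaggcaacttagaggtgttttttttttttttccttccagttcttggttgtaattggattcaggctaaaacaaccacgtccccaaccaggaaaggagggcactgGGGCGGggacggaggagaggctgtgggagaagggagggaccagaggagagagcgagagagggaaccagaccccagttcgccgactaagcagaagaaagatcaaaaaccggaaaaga
TIMP3 (chr22:32801455-32801754, plus strand): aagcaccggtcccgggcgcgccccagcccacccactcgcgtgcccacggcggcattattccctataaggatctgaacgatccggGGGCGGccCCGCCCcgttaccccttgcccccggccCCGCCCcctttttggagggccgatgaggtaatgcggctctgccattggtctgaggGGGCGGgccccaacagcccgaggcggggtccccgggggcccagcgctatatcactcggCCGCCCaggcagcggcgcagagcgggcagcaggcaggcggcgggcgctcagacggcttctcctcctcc

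The AP-1 letters began at position -67 in both MMP7 and MMP10, and TATAAA at -30 and -31. MMP7 has TGAGTCA, while MMP10 has TGAATCA, outside the usual core. MMP20, also in the cluster, carried both motifs further out, at -112 and -72, with TGAATCA as in MMP10. Matches with G or C in the middle were not counted apart. AP-1 letters were found in 4 of the 45 promoters (8.89%), those of MMP7, MMP10, MMP20 and ADAMTS12, against 7.71% of 35116 promoters of all genes and 6.15% of those of protein-coding genes. TATAAA was in 9 of the 45 (20%), against 11.5% of all promoters and 9.47% of protein-coding ones. MMP14 held 1 GC box, at -66, and TIMP3 held 5 in a window of 72.7% GC, and a GC box was in 30 of the 45 (66.7%), against 45% of all promoters and 56.3% of protein-coding ones. The called genes ADAM22, ADAMTS7, ADAMTS13 and ADAMTS14 had 2, 7, 2 and 5 GC boxes and neither of the other motifs. No promoter was at hand for the called genes MMP2, MMP13, TIMP2, ADAMTS1 and ADAMTS4, nor for MMP1, MMP3, MMP9 and MMP12. Their motifs were not searched, and the shares above leave them out. A match of letters in this window is a description and not a binding site.

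The ADAMTS genes moved in both directions, and 2 proteoglycan-cleaving members moved opposite ways. ADAMTS1 (gene 9510, chromosome 21, 26835755 to 26845409, minus strand), which cuts versican and aggrecan, had 4.90, 30.3 and 12.1 CPM in resistant libraries, against 1.02, 1.48 and 3.78 CPM in control libraries. The groups were apart, with a wide spread in the resistant group, where replicate 2 was the highest. The means were 15.7 ± 13.1 CPM in resistant and 2.09 ± 1.48 CPM in control libraries (SD, n = 3 each) and the fitted rise was 6.99-fold (log2 difference 2.81 ± 0.53 SE, edgeR adjusted p = 0.0263), 2.23 on the log2 scale in 2020 and 2.99 in 2021. With replicates as a block it was at 0.0911, and it also missed the threshold without a filter (0.132) and without resistant replicate 1 or any 1 of the control libraries (0.0636 to 0.197). The endothelial marker KDR was at 39.4, 63.8 and 12.9 CPM in resistant and 19.9, 6.15 and 23.6 CPM in control libraries, highest in the same resistant library, and its part in this result was not tested. Over the list of 6 endothelial markers, CDH5 was at 1.8, 0.915 and 0.831 CPM in resistant and 1.34, 0.518 and 0.118 CPM in control libraries (edgeR adjusted p = 0.182, unadjusted 0.0465). VWF was at 1.02 to 1.7 CPM in resistant and 1.64 to 1.84 CPM in control libraries, PECAM1 at 0.218 to 0.485 CPM in resistant and 0.273 to 0.769 CPM in control libraries, and TEK at 0.145 to 0.431 CPM in resistant and 0.0745 to 0.369 CPM in control libraries. CLDN5 had 0 counts in resistant and 0 to 1 in control libraries. None of the 10 nearest tested genes around ADAMTS1 was called, and their median log2 difference was -0.01. Its neighbour ADAMTS5, an aggrecanase on the same strand, had 5 counts in resistant replicate 2 and 0 in the other 5 libraries.

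ADAMTS4 (gene 9507, chromosome 1, 161184302 to 161199054, minus strand), the other main aggrecanase, fell. It had 2.15, 3.84 and 2.65 CPM in resistant libraries and 7.50, 12.1 and 7.20 CPM in control libraries, and the highest resistant library was below the lowest control library. The means were 2.88 ± 0.867 CPM in resistant and 8.93 ± 2.74 CPM in control libraries (SD, n = 3 each), a 3.12-fold fall (log2 difference -1.64 ± 0.24 SE, edgeR adjusted p = 0.00408), with -1.78 in 2020 and -1.54 in 2021. This call held under all 16 alternatives, with adjusted p of 0.0369 or less. ADAMTS20, the third testable member of the class, was at 0.468 ± 0.361 CPM in resistant and 0.236 ± 0.255 CPM in control libraries (SD, n = 3 each; edgeR adjusted p = 0.573).

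ADAMTS13 (gene 11093, chromosome 9, 133414337 to 133459386, plus strand), the enzyme that trims von Willebrand factor in blood, had 2.26, 3.14 and 2.44 CPM in resistant and 1.37, 0.983 and 1.08 CPM in control libraries. The groups were apart, and it rose 2.31-fold (log2 difference 1.21 ± 0.25 SE, edgeR adjusted p = 0.017), by 0.71 in 2020 and 1.40 in 2021. Its substrate VWF was at 1.39 ± 0.346 CPM in resistant and 1.71 ± 0.117 CPM in control libraries (SD, n = 3 each; edgeR adjusted p = 0.524). ADAMTS7 (gene 11173, chromosome 15, 78759206 to 78811464, minus strand), which cuts the cartilage protein COMP, had 11.0, 14.1 and 14.2 CPM in resistant and 7.55, 9.22 and 10.1 CPM in control libraries. Here too no control library reached the lowest resistant one, and the rise was 1.46-fold (log2 difference 0.55 ± 0.11 SE, edgeR adjusted p = 0.0179), 0.54 in 2020 and 0.55 in 2021. The calls ended without resistant replicate 2 or 3 for ADAMTS13 (adjusted p up to 0.0746), and without any resistant library or control replicate 1 for ADAMTS7 (up to 0.0955). The pseudogene ADAMTS7P1 was listed at 0 in every library.

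ADAMTS14 (gene 140766, chromosome 10, 70672506 to 70762441, plus strand), which removes the amino-terminal propeptide of fibrillar procollagen, had 0.916, 0.87 and 0.706 CPM in resistant and 0.522, 0.286 and 0.192 CPM in control libraries. The groups were apart at this low level, and the fitted rise was 2.66-fold (log2 difference 1.41 ± 0.34 SE, edgeR adjusted p = 0.0322), 0.77 in 2020 and 1.61 in 2021. With replicates as a block it was at an adjusted p of 0.0506, and without replicate 2 or 3 of either line it was 0.0608 to 0.115. ADAMTS3, with the same role, was at 2.47 ± 0.48 CPM in resistant and 1.75 ± 0.627 CPM in control libraries (SD, n = 3 each; edgeR adjusted p = 0.164). ADAMTS17, whose mutation in humans affects eye and skeleton, had the highest mean of the remaining ADAMTS genes. It was at 16.5 ± 3.51 CPM in resistant and 21.1 ± 2.73 CPM in control libraries (SD, n = 3 each; log2 difference -0.37 ± 0.13 SE, edgeR adjusted p = 0.102) and passed, lower, without control replicate 3 (0.0284).

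The ADAMTS-like genes, which have the binding domains without the protease, pointed in opposite directions and neither passed with edgeR or limma voom, although both had an unadjusted p under 0.05. ADAMTSL5 had 0.996, 2.27 and 1.35 CPM in resistant and 0.348, 1.07 and 0.841 CPM in control libraries (log2 difference 1.06 ± 0.31 SE, edgeR adjusted p = 0.0576), and passed without a filter (0.0188) and with DESeq2 (0.0415). ADAMTSL4, a partner of fibrillin microfibrils, had 0.566, 1.73 and 1.74 CPM in resistant and 0.994, 2.23 and 3.54 CPM in control libraries (log2 difference -0.76 ± 0.25 SE, edgeR adjusted p = 0.0932), and passed without control replicate 2 (0.0353). Both groups overlapped for each gene, and ADAMTSL4 was lower in both lines in 2020.

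None of the 8 testable ADAMs with a catalytic site passed the edgeR test, among them the main sheddases. ADAM9 alone had an unadjusted p under 0.05, DESeq2 called 1 and limma voom 0. ADAM10, which cuts Notch receptors and cadherins, had 319, 221 and 264 CPM in resistant and 303, 203 and 210 CPM in control libraries, with a log2 difference of 0.18 ± 0.11 SE (edgeR adjusted p = 0.347). ADAM17, which releases TNF and ligands of EGFR, had 200, 155 and 144 CPM in resistant and 195, 123 and 145 CPM in control libraries (log2 difference 0.11 ± 0.11 SE, edgeR adjusted p = 0.543). ADAM9 was closest to the threshold, with 213, 141 and 147 CPM in resistant and 176, 117 and 119 CPM in control libraries. Its difference was 0.28 in 2020 and 0.29 in 2021 (0.29 ± 0.09 SE in the fit of both, edgeR adjusted p = 0.0826), and it passed with upper quartile scaling (0.0495) and DESeq2 (0.0136). ADAM15 was at 192 ± 9.92 CPM in resistant and 209 ± 39.1 CPM in control libraries (SD, n = 3 each; edgeR adjusted p = 0.652). For ADAM9, ADAM10 and ADAM17 the libraries of 2020 were the highest in both lines, and the groups overlapped across batches. ADAM8, ADAM20, ADAM21 and ADAM28 had log2 differences of 0.24 to 0.88 and adjusted p of 0.298 to 0.682, and ADAM28 passed with crossed replicate numbers as a block.

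ADAM22 (gene 53616, chromosome 7, 87934251 to 88202889, plus strand) lacks protease activity and serves as a receptor for secreted LGI proteins in neurons, and it was the only ADAM called. It had 33.7, 33.4 and 34.1 CPM in resistant and 22.9, 17.8 and 26.5 CPM in control libraries. The resistant libraries were nearly equal and all above the controls, a 1.51-fold rise (means 33.7 ± 0.372 CPM in resistant and 22.4 ± 4.4 CPM in control libraries, SD, n = 3 each; log2 difference 0.59 ± 0.15 SE, edgeR adjusted p = 0.0347), 0.56 in 2020 and 0.64 in 2021. Leaving out any resistant library or control replicate 1 ended the call (adjusted p = 0.104 to 0.158). ADAM22 lies 431 kb from ABCB1, the gene of the drug pump P-glycoprotein, which rose 1.99-fold (edgeR adjusted p = 0.0251, 0.103 without the batch term, and at most 0.14 when resistant replicate 2 or 3 or control replicate 2 was left out). The 3 tested genes between them, RUNDC3B, SLC25A40 and DBF4, had log2 differences of -0.16 to -0.06 and did not pass. The other testable ADAM without a catalytic site, ADAM11, was at 0.895 ± 0.325 CPM in resistant and 0.598 ± 0.152 CPM in control libraries (SD, n = 3 each; edgeR adjusted p = 0.272).

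Among the 38 genes that were not tested, 15 were listed at 0 in every library and 23 held some counts. Of the 23, 9 had counts in resistant libraries only, 2 in control libraries only and 12 in both. Their summed counts were 9, 127 and 93 in resistant replicates 1 to 3 and 15, 29 and 41 in control replicates 1 to 3. The sums were higher in resistant libraries in 2021 but not in 2020. Of the 23 genes, 13 had their highest CPM in resistant replicate 2. The libraries differ in depth, and none of these numbers was set beside that of all other untested genes. ADAM23, a catalytically silent relative of ADAM22, had 1, 32 and 24 counts in resistant and 0, 0 and 1 in control libraries. The ratio of its summed counts per depth was 46.7, with a 95% counting interval of 8.05 to 1880, and with no filter it was called (edgeR adjusted p = 0.000242). ADAMTS6 had 2, 13 and 7 counts in resistant and 1, 3 and 3 in control libraries (ratio 2.58, interval 1.06 to 7.14). MMP19 had 0, 2 and 12 counts in resistant and 1, 2 and 1 in control libraries (ratio 2.87, interval 0.901 to 12.0), with 12 of the 14 resistant counts in 1 library. These intervals cover counting error and not the spread between libraries.

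The genes at 0 in all libraries were ADAM2, ADAM7, ADAM18, ADAMTS2, ADAMTS8, ADAMTS9, ADAMTS10, ADAMTS18, ADAMTS19, ADAMTSL1, ADAMTSL3, MMP10, MMP11, MMP26 and MMP27. The cystatin gene CST3, which most cell types express, was listed at 0 as well, so a 0 here says only that no read was counted. Libraries were enriched with exome capture probes, and which genes those probes or the counting missed was not tested.

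Levels can be set beside each other only per length, and on that scale the membrane sheddases led. Per kilobase of the longest transcript, ADAM9 was at 43.6 ± 10.4 CPM per kb in resistant and 35.7 ± 8.7 CPM per kb in control libraries, and ADAM15 at 42.7 ± 2.2 in resistant and 46.4 ± 8.68 in control libraries (SD, n = 3 each). ADAM17 followed at 25.3 ± 4.51 CPM per kb in resistant and 23.5 ± 5.6 CPM per kb in control libraries, then ADAM10 at 23.5 ± 4.3 in resistant and 20.9 ± 4.86 in control libraries (SD, n = 3 each). ADAM17 and ADAM10 lay within their SD in both lines, and ADAM9 and ADAM15 in resistant libraries. In control libraries ADAM15 was above ADAM9 by more than either SD. In resistant libraries TIMP1 (18 CPM per kb), MMP15 (17.7) and MMP14 (13.1) came next, then TIMP2 (9.81), MMP7 (7.52), TIMP3 (5.50) and MMP2 (4.95). MMP7 rests on resistant replicate 2, at 4.44, 12.9 and 5.21 CPM per kb in the 3 resistant libraries, so its place above TIMP3 and MMP2 lies within its spread. In control libraries the means of these genes were 14.3 CPM per kb for TIMP1, 13.6 for MMP15, 8.70 for MMP14, 5.12 for TIMP2, 2.99 for MMP7, 3.21 for TIMP3 and 2.85 for MMP2. The same 4 ADAMs led per coding length, but ADAM10, whose transcript has a long untranslated part, was first there at 120 CPM per kb in resistant and 106 CPM per kb in control libraries. Below them the resistant order changed, to TIMP2 (54.3 CPM per coding kb), TIMP3 (40), MMP15 (37.5), TIMP1 (31.8) and MMP14 (28). The order below the 4 ADAMs thus depends on the length used. How evenly the capture probes enriched these genes was not tested. Summed over classes, the 12 catalytic ADAMs held 124 to 161 CPM per kb in resistant and 117 to 143 in control libraries. The 4 TIMPs held 30.0, 37.0 and 33.5 CPM per kb in resistant and 21.8, 28.4 and 17.8 in control libraries, and the 6 membrane-type MMPs 28.9, 34.4 and 33.4 in resistant against 21.1, 26.1 and 23.0 in control libraries. Both sums were higher in every resistant library than in every control library, whereas those of the catalytic ADAMs overlapped.

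**Figure D4:**
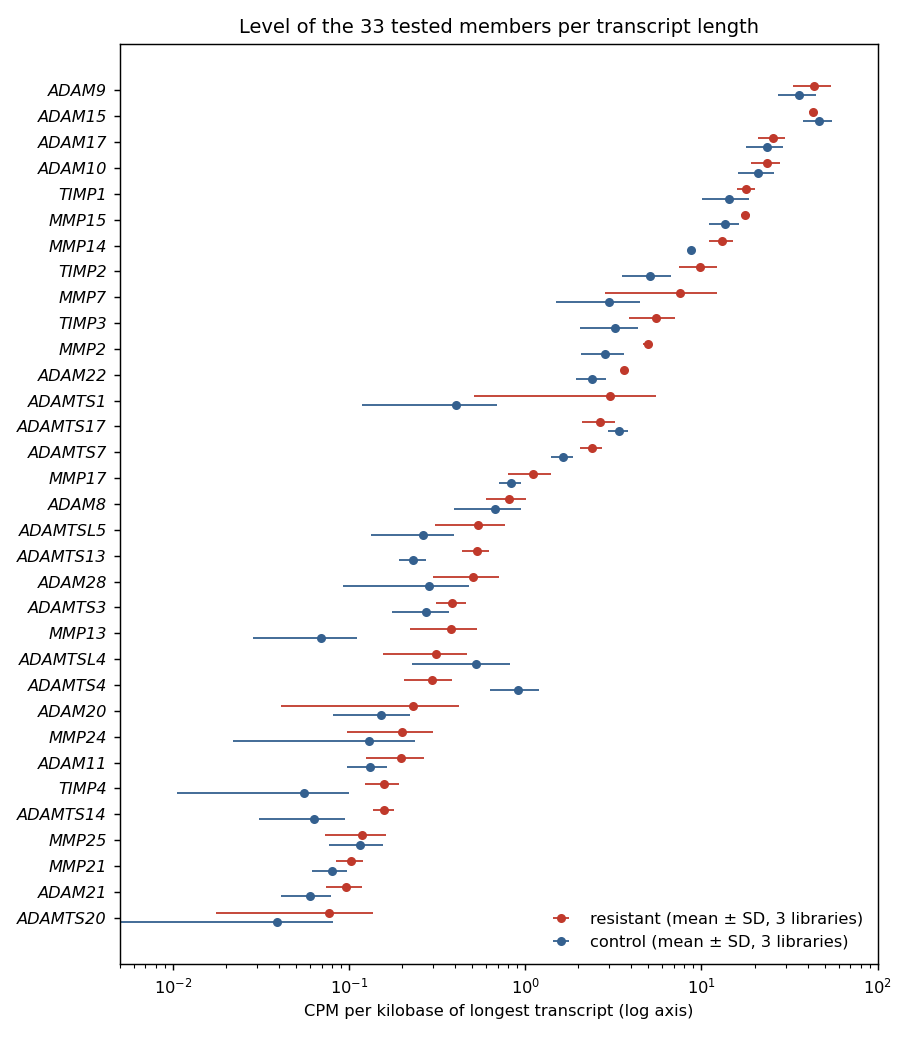
Mean level in CPM per kilobase of the longest transcript on a log axis, resistant above control for each gene, with SD over 3 libraries as bars, for the 33 tested genes ordered by the resistant mean. The range runs from ADAM9 at 43.6 to ADAMTS20 at 0.077 CPM per kb in resistant libraries, and the widest gaps between lines are those of ADAMTS1 and MMP13.

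The batches differed in some of the same genes. Between 2021 and 2020, 6 of the 33 genes were called (18.2%), against 22.9% of all tested genes. TIMP2, TIMP3 and ADAMTSL4 were higher in 2021, by 0.61, 0.93 and 1.57 on the log2 scale (edgeR adjusted p = 0.0343, 0.00217 and 0.0102). ADAM9, ADAM10 and ADAM17 were lower in 2021, by -0.57, -0.47 and -0.48 (edgeR adjusted p = 0.00729, 0.0244 and 0.0202). A difference between the lines that itself differs between the batches was called in 0 of 13950 genes (0%, edgeR line-by-batch interaction), with 187 at an unadjusted p under 0.05. Among the 33 it reached an unadjusted p under 0.05 for MMP13 (0.0304) and MMP25 (0.0461), with an adjusted p of 1 for each. The 2020 batch has 1 library of each line, so the interaction rests on the spread of the 2021 libraries.

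Genes that act with these proteases were counted by list, in the same fit and against the 11.7% of all tested genes. The lists were drawn up with earlier results of these data known, so their shares are a description and not independent support. Protease inhibitors other than TIMPs, with clearance receptors, had 5 of 10 tested members higher and none lower (50%, median log2 difference 0.70). TFPI2, a Kunitz-type serine protease inhibitor, was at 18.7 ± 3.54 CPM in resistant and 5.27 ± 3.21 CPM in control libraries (SD, n = 3 each; edgeR adjusted p = 0.0014). SERPINB5, the serpin maspin, was at 19.1 ± 2.98 CPM in resistant and 5.35 ± 1.56 CPM in control libraries (SD, n = 3 each), a 3.62-fold rise (edgeR adjusted p = 0.000654). A2M, the broad protease inhibitor alpha-2-macroglobulin, which also traps metalloproteinases, was at 295, 303 and 238 CPM in resistant and 154, 89.9 and 63.3 CPM in control libraries. No control library reached the resistant ones, and the rise was 2.89-fold (edgeR adjusted p = 0.00631). RECK, a membrane-anchored inhibitor of MMPs, was at 5.11 ± 1.35 CPM in resistant and 5.12 ± 0.66 CPM in control libraries (SD, n = 3 each; edgeR adjusted p = 0.976).

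Matrix substrates had 7 of 14 tested members higher and none lower (50%, median 0.82). FBN1, which forms fibrillin microfibrils, was at 21.4 ± 5.04 CPM in resistant and 4.10 ± 0.335 CPM in control libraries, and COL4A2, a basement membrane collagen, at 179 ± 66.2 CPM in resistant and 38.9 ± 9.49 CPM in control libraries (SD, n = 3 each; edgeR adjusted p = 0.000654 for both). Among proteoglycans that ADAMTS1 and ADAMTS4 cut, VCAN and ACAN were too low to test. VCAN was at 0.0219 CPM in resistant and 0.0202 CPM in control libraries, and ACAN at 0.0539 CPM in resistant and 0.0262 CPM in control libraries. COMP, a substrate of ADAMTS7, was likewise too low, at 0.0194 CPM in resistant and 0.0142 CPM in control libraries. Of 26 genes on that list 12 were not tested.

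Of 9 tested zymogen activators 1 was higher (11.1%, near the share of all genes, median -0.02), the plasminogen activator gene PLAT, at 1.52 ± 0.363 CPM in resistant and 0.765 ± 0.241 CPM in control libraries (SD, n = 3 each; edgeR adjusted p = 0.0346). With replicates as a block PLAT was at 0.0631, and its call ended without any 1 library other than control replicate 3 (up to 0.133). None of the 9 regulators of ADAM10 and ADAM17 passed with edgeR, DESeq2 or limma voom, 0 had an unadjusted p under 0.05 (median 0.00), and the most abundant, the tetraspanin TSPAN15 that guides ADAM10, was at 61.9 ± 8.78 CPM in resistant and 62.9 ± 6.42 CPM in control libraries (SD, n = 3 each; edgeR adjusted p = 0.878). Of 19 tested membrane proteins that these sheddases cut, 2 rose and 1 fell (15.8%, median -0.02). ICAM1, a leukocyte adhesion molecule, rose to 84.8 ± 19.6 CPM in resistant, against 39.6 ± 6.08 CPM in control libraries (SD, n = 3 each; edgeR adjusted p = 0.00447), and the Notch ligand JAG1 was at 150 ± 13.9 CPM in resistant and 98.9 ± 9.82 CPM in control libraries (SD, n = 3 each; edgeR adjusted p = 0.0103). The proteoglycan SDC1 fell to 201 ± 2.59 CPM in resistant, against 303 ± 15.2 CPM in control libraries (edgeR adjusted p = 0.00832). JAG1 and SDC1 missed the threshold without resistant replicate 3 (0.0567 and 0.0506).

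Of 3 tested other metzincins none was called by edgeR, DESeq2 or limma voom and 0 had an unadjusted p under 0.05, and BMP1, a procollagen C-proteinase, was at 55.2 ± 13.5 CPM in resistant and 47.5 ± 9.74 CPM in control libraries (SD, n = 3 each; edgeR adjusted p = 0.355). Of 16 transcription factors known to act on MMP promoters, 3 rose and none fell (18.8%, median -0.05). ETS1 was at 83.5 ± 6.76 CPM in resistant and 36.1 ± 0.729 CPM in control libraries (SD, n = 3 each), a 2.31-fold rise (edgeR adjusted p = 0.000654). FOSL2, an AP-1 subunit, was at 67.9 ± 4.89 CPM in resistant and 51.7 ± 12.1 CPM in control libraries (SD, n = 3 each; edgeR adjusted p = 0.0434), with 0.0669 when replicates were a block, and its call ended without replicate 2 or 3 of either line (up to 0.198). Without the batch term A2M, TFPI2, PLAT, JAG1 and FOSL2 missed the threshold (edgeR adjusted p = 0.0512, 0.0535, 0.206, 0.0625 and 0.359). The AP-1 genes FOS, FOSB, JUN and JUNB varied widely within each line. JUND was steadier, at 57.7, 76.1 and 61 CPM in resistant and 70.8, 58.3 and 68.1 CPM in control libraries. FOSL1 was highest in the 2020 library of each line, at 22.4 CPM in resistant and 18.4 CPM in control. FOS was at 232, 169 and 3.31 CPM in resistant and 324, 2.93 and 202 CPM in control libraries, and JUN at 149, 118 and 39.8 CPM in resistant and 242, 33 and 156 CPM in control libraries. Resistant replicate 3 and control replicate 2 were the low ones for both genes and for FOSB, and neither FOS nor JUN passed (edgeR adjusted p = 0.944 and 0.797). In 2021 MMP7 was likewise higher in resistant replicate 2 than in 3 and in control replicate 3 than in 2, as was ADAMTS1, and whether these go together was not tested.

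**Figure D5:**
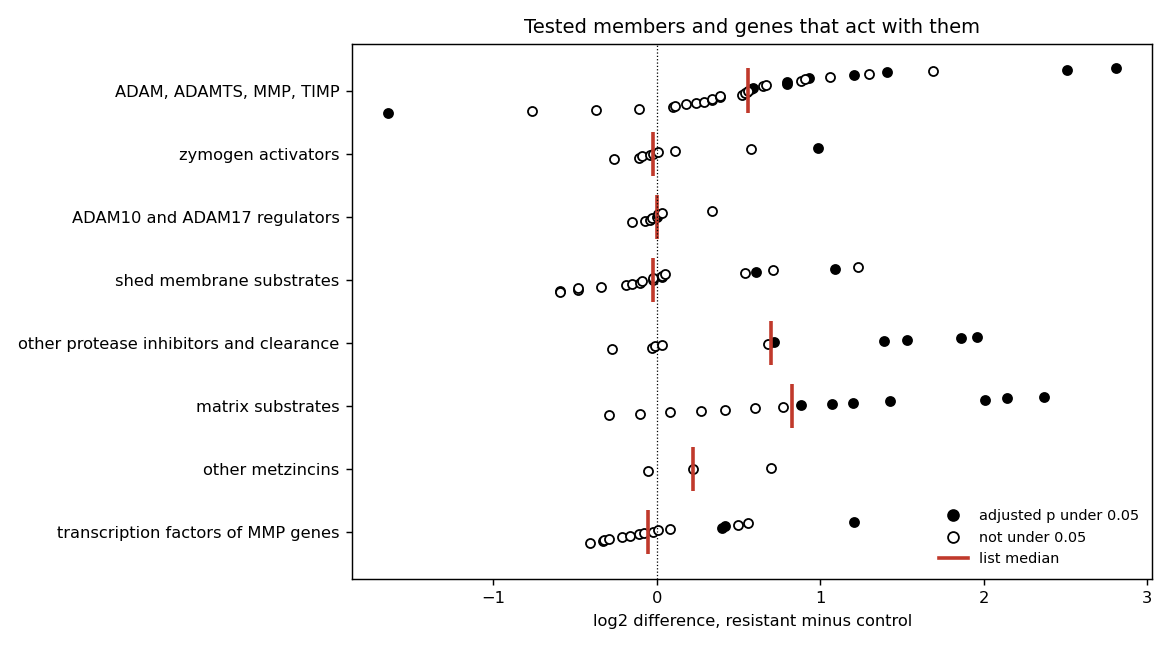
Log2 difference, resistant minus control, of each tested gene of the protease and inhibitor families in the top row and of 7 lists of genes that act with them below. Filled points passed the adjusted p threshold of 0.05 and red bars are list medians, which are 0.559 for the families, 0.82 for matrix substrates, 0.70 for other inhibitors and near 0 for zymogen activators, ADAM10 and ADAM17 regulators and shed membrane substrates. The lists were drawn up with earlier results of these data known.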

How the data were processed

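Whole-number counts per gene, not normalised, were deposited by the authors in 1 table with a column per library, matched to samples by the library names in the labels. Total RNA (100 ng) went into Kapa RNA HyperPrep libraries that were enriched with exome capture probes, per the labels' protocols. Trimmomatic 0.38, STAR 2.7.8a and featureCounts of Subread, with GRCh38, are named per the submitters' processing notes. Neither the strand setting nor the handling of multi-mapped reads is given in the sources used here. No column was left unused.

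Names and positions came from RefSeq (GRCh38.p14), which named 27745 of 28395 IDs, and lengths from GENCODE. Counts were scaled by TMM and genes kept by filterByExpr by group. The main test was edgeR 4.0.16 with robust quasi-likelihood fits over all 13950 genes (R 4.3.3, 3 residual degrees of freedom), adjusted by Benjamini-Hochberg. It was also run on counts simulated without a batch effect, which cannot show how the calls depend on the batch term. CPM values are TMM-scaled, within-batch differences use a prior count of 2, and SE derive from the F statistic. Alternatives included DESeq2 1.42.0 and limma 3.58.1 voom. Any pair of libraries of one line differed beyond sampling noise (chi-square over its degrees of freedom, 70 to 215). Whether replicates are separate cultures is not in the labels, and p-values then measure only the spread of these libraries, which may be technical.

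Same-numbered resistant and control libraries deviated together across genes, with correlations of 0.729, 0.143 and 0.155. Crossed numbers correlated more within 2021, at 0.477 for resistant 2 with control 3 and 0.57 for resistant 3 with control 2. The numbers come from the sample titles, and number 1 is the 2020 batch. The members, gene lists and tests were chosen with earlier results of these data known. Named were every called gene, those with adjusted p of 0.05 to 0.1, all TIMPs, ADAM10, ADAM17, MMP2, MMP9 and MMP14, the most abundant gene of each class, untested genes with a library of at least 10 counts, and, per list of acting genes, up to 2 risen and 2 fallen at a mean of at least 1 CPM. Other genes named were chosen after their values were seen.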

Additional observations from a re-analysis of the deposited data

How the results depend on the processing

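Of 13950 genes, 1633 were called, with 362 without the batch term and 968 in 2021 alone, and 606 to 1955 when 1 library was left out. Higher calls among the tested members numbered 10, with 0 without the batch term, 6 in 2021 alone and 2 to 8 with 1 library left out, and lower calls 1 to 2. DESeq2 gave 14 higher and 1 lower member and 2204 genes. Upper quartile scaling shifted the median of all genes by less than 0.1. The median log2 difference of the members was 0.44 to 0.66 with 1 library left out. Genes called on the lists of acting genes numbered 19, with 9 without the batch term and 11 to 19 with 1 library left out, alternatives chosen after seeing the data. With replicates as a block (the pairing by number, instead of the batch), 8 members were higher, 1 was lower and 1303 genes were called, and apart from ADAMTS1 and ADAMTS14 no member's call ended. Within 2021 the differences of replicates 2 and 3 in the resistant and the control line correlated at -0.361, and crossed numbers, added after seeing the data, gave 13 higher, 1 lower and 2254 genes. Members per kilobase had a median of 0.838 CPM in resistant libraries by transcript length and 1.24 by coding length. Of the values of the 33 tested members under up to 16 alternatives, 454 stayed on their side of the threshold in the same direction, 44 no longer passed, 14 passed in addition and 6 changed direction, all of genes that did not pass. With 1 library left out the log2 difference was -0.28 to 0.04 for ADAM15 and -0.1 to 0.61 for ADAM8 (turned without control replicate 2), -0.14 to 0.82 for ADAM20 (turned without resistant replicate 2) and -0.13 to 0.6 for MMP25. MMP25 was at -0.13 without resistant replicate 2, -0.04 without control replicate 2 and -0.11 without control replicate 3. The cause was not tested. The design leaves 3 residual degrees of freedom, holds 1 derivative line and, for genes under 1 CPM, few counts.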
